A study of Homo sapiens with 18 samples.

Results

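The SOX transcription factors were followed here through epithelial-to-mesenchymal transition (EMT) in 3 lung cancer cell lines. The 10 genes were SOX2, SOX4, SOX5, SOX6, SOX7, SOX9, SOX11, SOX12, SOX13 and SOX15, taken as the rows of the expression table that bear these symbols, 10 of 19849 genes. All 10 were found, each read by 1 probe set, and no filter on low values was applied. A549, HCC827 and NCI-H358 are established human non-small cell lung cancer lines, of which HCC827 carries mutant EGFR. Parental cells of each line grew in RPMI1640 with serum and glutamine. Mesenchymal cells grew in the same medium with TGFβ at 2 ng/ml, given as 3 weeks in the sample labels, and received medium lacking TGFβ on the day before lysis, so the arrays show cells from which the ligand had been withdrawn. Each of the 6 groups had 3 arrays, 18 in all, and the study's methods treat the arrays of a group as distinct cultures prepared in parallel. Each line is a single established culture, so differences between lines are differences between 3 cultures.

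SOX proteins bind DNA through an HMG box, bend it, and act with partner factors that set which genes are reached. They are sorted into groups by sequence. SOX2 belongs to SOXB1, the group of pluripotent and neural progenitor cells, and is also a lineage factor of the foregut and of squamous lung epithelium. SOX4, SOX11 and SOX12 form SOXC, found in many progenitors, of which SOX4 is a known TGFβ target. SOX5, SOX6 and SOX13 form SOXD, which lack a transactivation domain. SOX9 belongs to SOXE and acts in cartilage, in distal lung progenitors and in stem cells of several epithelia, SOX7 belongs to SOXF, the group of endothelial development, and SOX15 is the SOXG member.

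Promoter windows from RefSeq (GRCh38.p14) were matched for 6 of the 10 genes, namely SOX2, SOX4, SOX5, SOX6, SOX12 and SOX13, and not for SOX7, SOX9, SOX11 and SOX15. The 250 bases before the annotated start, all on the + strand, are printed for SOX2 (chr3:181711675-181711924), SOX13 (chr1:204072865-204073114), SOX4 (chr6:21593501-21593750) and SOX12 (chr20:325302-325551), because these genes show the main patterns described below. SOX2 lost most of its signal in A549 and HCC827, SOX13 fell in each line, SOX4 rose in A549, and SOX12 took a different direction in A549 than in the other lines. Capitals mark matches to any of the motifs CACCTG (an E-box bound by ZEB and SNAIL proteins), CAGAC (a SMAD box), ACAAAG and ACAATG (SOX motifs), TGACTCA (AP-1) and CCAAT (the CCAAT box), searched on both strands. The CCAAT box was added after the sequences had been seen.
SOX2: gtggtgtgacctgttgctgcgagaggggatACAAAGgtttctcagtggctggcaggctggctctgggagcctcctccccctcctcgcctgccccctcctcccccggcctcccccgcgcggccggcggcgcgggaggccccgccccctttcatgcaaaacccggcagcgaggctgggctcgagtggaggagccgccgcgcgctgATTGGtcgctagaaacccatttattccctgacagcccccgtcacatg
SOX13: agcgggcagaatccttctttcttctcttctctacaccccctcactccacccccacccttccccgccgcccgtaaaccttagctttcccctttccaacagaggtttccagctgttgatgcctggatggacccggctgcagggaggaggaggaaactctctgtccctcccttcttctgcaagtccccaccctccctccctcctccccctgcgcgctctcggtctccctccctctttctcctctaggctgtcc
SOX4: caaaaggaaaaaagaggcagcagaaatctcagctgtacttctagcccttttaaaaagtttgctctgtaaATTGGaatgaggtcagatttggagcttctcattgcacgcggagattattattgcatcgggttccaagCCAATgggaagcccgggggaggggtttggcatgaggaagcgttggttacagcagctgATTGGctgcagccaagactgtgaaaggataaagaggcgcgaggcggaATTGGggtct
SOX12: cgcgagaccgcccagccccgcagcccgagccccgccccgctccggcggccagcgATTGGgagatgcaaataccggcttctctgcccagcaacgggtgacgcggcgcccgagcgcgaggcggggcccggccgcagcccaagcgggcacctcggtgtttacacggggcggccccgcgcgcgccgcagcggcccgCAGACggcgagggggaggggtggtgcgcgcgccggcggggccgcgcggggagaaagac
The SOX2 window held 1 ACAAAG match and 1 CCAAT box, the SOX4 window 4 CCAAT boxes, and the SOX12 window 1 CAGAC match and 1 CCAAT box, while none of the 6 motifs was found in the SOX13 window. None of the 4 windows contained CACCTG. Of 35116 promoters of the same length, 17.5% contained CACCTG, 38% CAGAC, 13.7% ACAAAG, 9.29% ACAATG, 4.2% TGACTCA and 32% CCAAT. The GC content was 68.8% for SOX2, 60.8% for SOX13, 48.8% for SOX4 and 79.2% for SOX12.

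Expression is given throughout as the log2 level after robust multi-array averaging (RMA), in which a difference of 1 is a doubling, and changes are log2 fold changes of mesenchymal over parental cells. A gene was called when its adjusted p was below 0.05 in 1 limma fit of all arrays, with Benjamini-Hochberg adjustment over all 19849 genes. The array medians lay between 6.31 and 6.47, and the 25th percentile of all values was 4.67. The table holds no detection calls, so a group mean below that percentile cannot be told from no signal, and a fold against such a group is a lower bound in size. The labels were checked against CDH1 (E-cadherin), which fell by 5.81 in A549, by 2.95 in HCC827 and by 3.94 in NCI-H358, and against CDH2 (N-cadherin), which rose by 1.94, 3.26 and 2.04. VIM rose by 0.79, 2.03 and 2.31 and ZEB1 by 0.79, 4.18 and 3.66, respectively. FN1 rose by 3.11, 3.98 and 1.99, whereas ZEB2 fell by 0.46 in A549 and rose by 5.32 and 2.20 in the others. The mesenchymal means of CDH1 and ZEB2 in A549 lay below the 25th percentile. So did the parental means of VIM and ZEB2 in HCC827 and NCI-H358, and all these changes are lower bounds. Of 10 EMT markers, 6 were called higher and 3 lower in A549, and 7 higher and 2 lower in each of the other lines. Of 11 lung and airway epithelial markers, 5 were called lower in A549 and 7 in each of HCC827 and NCI-H358. Over all genes, 16.6%, 20.8% and 21.5% were called higher and 26.8%, 25% and 19.8% lower in A549, HCC827 and NCI-H358. The lung factor NKX2-1 was near the bottom of the scale in A549, with mean levels of 3.67 and 3.90 in parental and mesenchymal cells. It was high in HCC827 (9.18 and 9.64) and NCI-H358 (8.62 and 7.56, respectively), and the NCI-H358 groups did not overlap. In HCC827 its log2 fold change was 0.46 (adjusted p = 0.0559). There it was called without parental replicate 1 (0.65, adjusted p = 0.00766) or mesenchymal replicate 1 (0.54, 0.047). Of 7 fibroblast markers, 5 were called higher in each line (3 in A549 without parental replicate 3, mesenchymal replicate 1 or mesenchymal replicate 2), and their mean level rose from 4.88–5.05 to 5.96–6.11 in A549, from 4.90–5.10 to 6.55–6.88 in HCC827 and from 5.55–5.71 to 6.78–6.88 in NCI-H358. These markers moved with the same groups as the SOX genes, and their part in the results was not tested. The mean of 7 leukocyte markers lay between 3.98 and 4.60 on every array.

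Of the 10 SOX genes, 6 were called in A549, SOX4, SOX6 and SOX9 higher and SOX2, SOX12 and SOX13 lower, where 43.4% of all genes were called (16.6% higher and 26.8% lower). In HCC827 5 were called, SOX9 and SOX12 higher and SOX2, SOX6 and SOX13 lower, against 45.8% of all genes (20.8% higher and 25% lower). That count was 3 without parental replicate 3 or mesenchymal replicate 2 and 7 without mesenchymal replicate 3. In NCI-H358 3 were called, SOX6 and SOX12 higher and SOX13 lower, against 41.4% (21.5% higher and 19.8% lower). These counts lay around the background of each line. With a fold above 2 as well, 3 genes passed in A549 (SOX2, SOX4 and SOX13, against 8.02% of all genes), 2 in HCC827 (SOX2 and SOX9, against 11.5%) and 2 in NCI-H358 (SOX12 and SOX13, against 9.38%). At the thresholds used in the study, an adjusted p below 1e-05 and a fold above 5, SOX2 passed in A549 (1.9% of all genes did), SOX2 and SOX9 in HCC827 (2.95%) and 0 genes in NCI-H358 (2.17%). That count of 0 was also 0 at an unadjusted p below 0.05 with the same fold, by limma and by the methods' t-test, which the study names as its general test while its arrays were analysed with limma. The 10 genes had a median log2 fold change of 0.14 for A549, -0.14 for HCC827 and -0.05 for NCI-H358, beside -0.02, 0.01 and 0.02 over all genes. As measured, the individual genes ranged far more widely, from a fall of SOX2 by 5.79 to a rise of SOX9 by 2.63, both in HCC827.

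**Figure D1:**
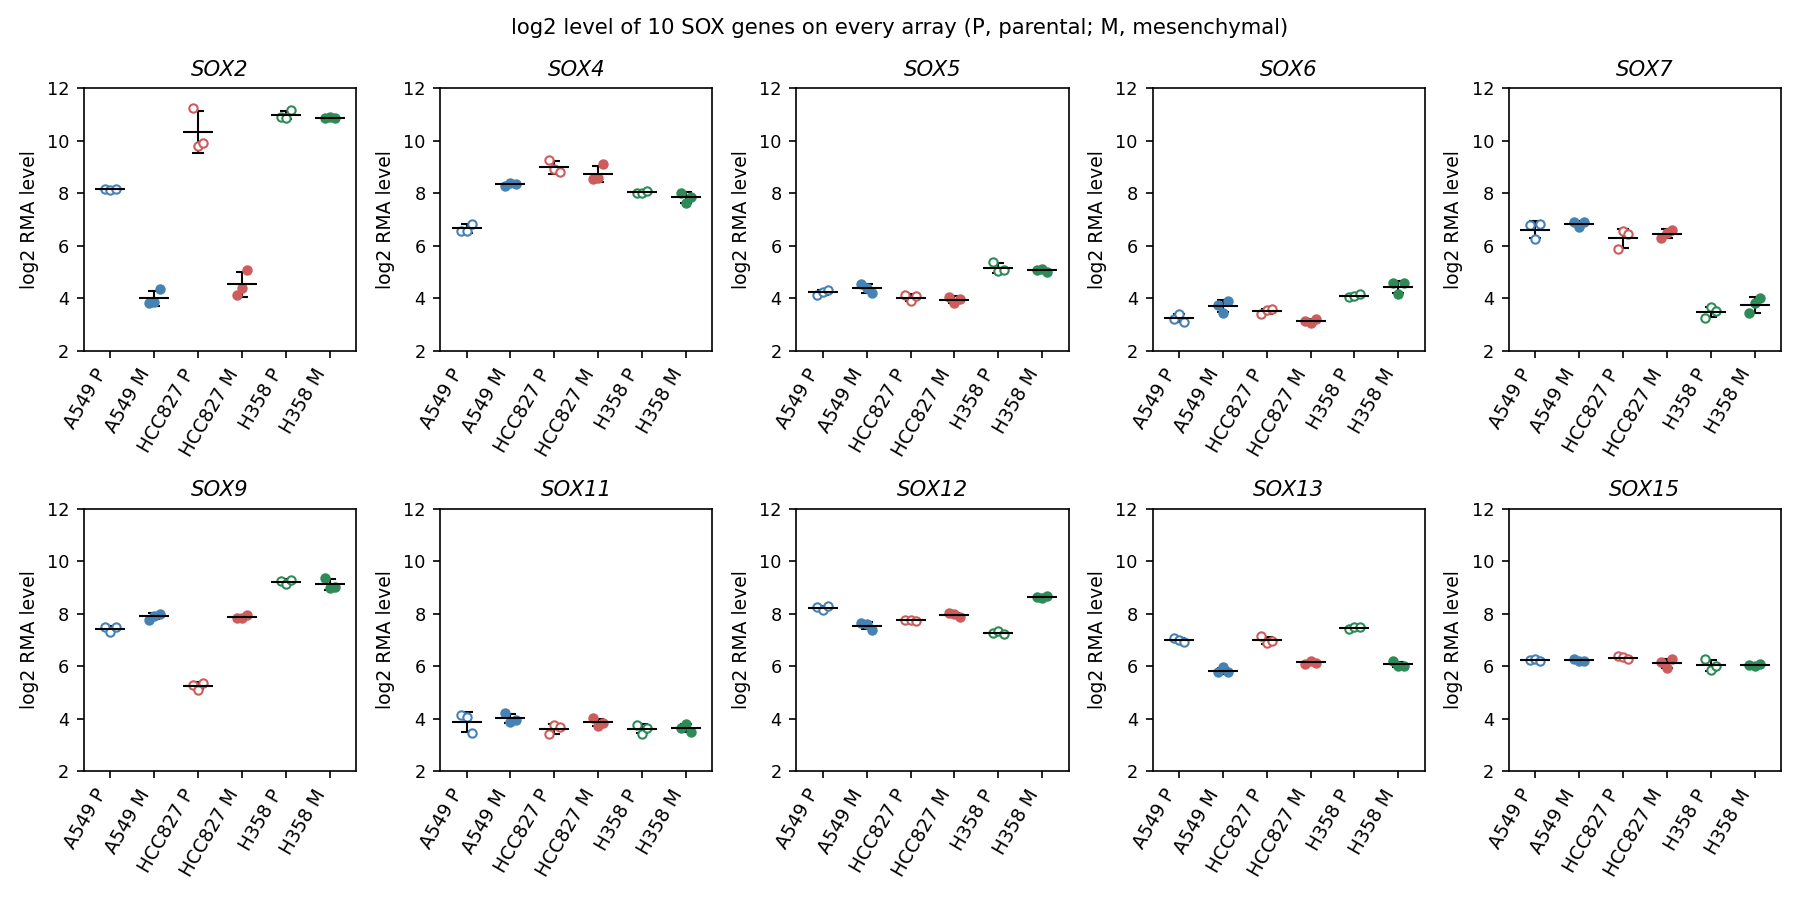
Each panel plots the log2 RMA level of 1 SOX gene (vertical axis) on every array, with open points for parental and filled points for mesenchymal cells, and bars for the mean ± SD of 3 arrays. SOX2 drops to between 3.81 and 5.07 in mesenchymal A549 and HCC827 but stays at 10.86 to 10.89 in mesenchymal NCI-H358 cells.

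SOX2, the SOXB1 factor, was the most divided member of the family. In A549 its log2 level was 8.15, 8.13 and 8.18 on the parental arrays and 3.81, 3.87 and 4.34 on the mesenchymal arrays. In HCC827 it was 11.25, 9.80 and 9.91 in parental cells and 4.14, 4.40 and 5.07 in mesenchymal cells. In both lines every mesenchymal array lay far below every parental array. In NCI-H358 the parental levels were 10.92, 10.87 and 11.16 and the mesenchymal levels 10.86, 10.89 and 10.86, and the groups overlapped. SOX2 fell by 4.14 in A549 (SE 0.29, limma adjusted p = 3.41e-09), a ratio of 17.7-fold, and by 5.79 in HCC827 (adjusted p = 3.13e-11), a ratio of 55.2-fold. Both ratios are lower bounds, as the mesenchymal means lay below the 25th percentile of all values. In NCI-H358 its log2 fold change was -0.11 (95% interval -0.73 to 0.50, adjusted p = 0.818). The fall thus brought SOX2 to between the 16.1th and 23.5th percentile of the array on average, whereas in NCI-H358 it held the 94.8th percentile. The 1 parental HCC827 array at 11.25 stood apart from the other two, and without it the log2 fold change of SOX2 in HCC827 was -5.32, the smallest in size with any 1 array left out. Arrays of whole cultures cannot tell fewer SOX2-expressing cells from less SOX2 RNA in each cell.

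Ordered by level, SOX2 was highest in parental NCI-H358 (mean 10.98 ± 0.16, SD, n = 3 arrays), followed by mesenchymal NCI-H358 (10.87 ± 0.02) and parental HCC827 (10.32 ± 0.80), and these neighbours did not pass the test (adjusted p = 0.818 and 0.12). Parental A549 followed at 8.15 ± 0.02, below parental HCC827 by 2.17 (adjusted p = 4.69e-06). Mesenchymal HCC827 (4.54 ± 0.48) and mesenchymal A549 (4.01 ± 0.29) came last, and the difference between them did not pass the test (0.53, 95% interval -0.09 to 1.14, adjusted p = 0.136). The gap between mesenchymal NCI-H358 and mesenchymal A549 was 6.86 for SOX2, and the ratio of 116-fold is likewise a lower bound. SOX2-OT, the long non-coding RNA whose locus overlaps SOX2, was looked at after the values of SOX2 had been seen. Its means ran from 2.45 to 3.85, at the bottom of the scale, with log2 fold changes of -0.30 in A549 (adjusted p = 0.363), -0.77 in HCC827 (0.0159) and 0.69 in NCI-H358 (0.032). Both calls for SOX2-OT could be lost with 1 array left out. The value was -0.49 (adjusted p = 0.11) without HCC827 parental replicate 1 and 0.34 (0.212) without NCI-H358 mesenchymal replicate 3. The call in NCI-H358 was also lost without parental replicate 1 or 3 (0.119 and 0.0623).

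Among SOX2 partners and squamous or pluripotency genes, 17 of 18 listed genes were measured. In A549 4 were called higher (16.6% of all genes were) and 5 lower (26.8%). HCC827 had 4 higher (20.8%) and 4 lower (25%), and NCI-H358 3 higher (21.5%) and 6 lower (19.8%). The largest change as measured was that of TP63, the squamous lineage factor that lies on the same chromosome arm as SOX2. In NCI-H358 TP63 read 10.00, 9.90 and 10.15 on the parental arrays and 4.98, 5.12 and 5.01 on the mesenchymal arrays, a fall by 4.98 (adjusted p = 1.1e-14). TP63 dropped in the line in which SOX2 was not called, and a link between these genes was not tested. In A549 TP63 rose by 1.81 (adjusted p = 3.55e-09), and in HCC827 its log2 fold change was -0.27 (adjusted p = 0.102), or -0.37 without parental replicate 3 (adjusted p = 0.0374). FOXA2, a pioneer factor of foregut endoderm, fell by 2.03 in A549, by 1.81 in HCC827 and by 4.86 in NCI-H358. The mesenchymal FOXA2 means in HCC827 (3.98) and NCI-H358 (4.41) lay below the 25th percentile of all values, so those falls are lower bounds. The FOXA2 fall in NCI-H358 therefore cannot be ranked against that of TP63. FGFR1, a receptor often amplified in squamous lung tumours, rose by 3.21 in HCC827 and 4.18 in NCI-H358 and fell by 0.44 in A549, where it was already at 9.96 in parental cells. POU3F2, a neural POU partner of SOX2, rose by 2.53 in HCC827 and 2.39 in NCI-H358 and was not called in A549 (0.20, adjusted p = 0.284) except without parental replicate 2 (0.36, adjusted p = 0.0425). The parental POU3F2 mean in HCC827 (4.00) lay below the 25th percentile, so that rise is a lower bound. Both POU3F2 means in A549 (4.02 and 4.22) lay below it too and cannot be told from no signal.

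**Figure D2:**
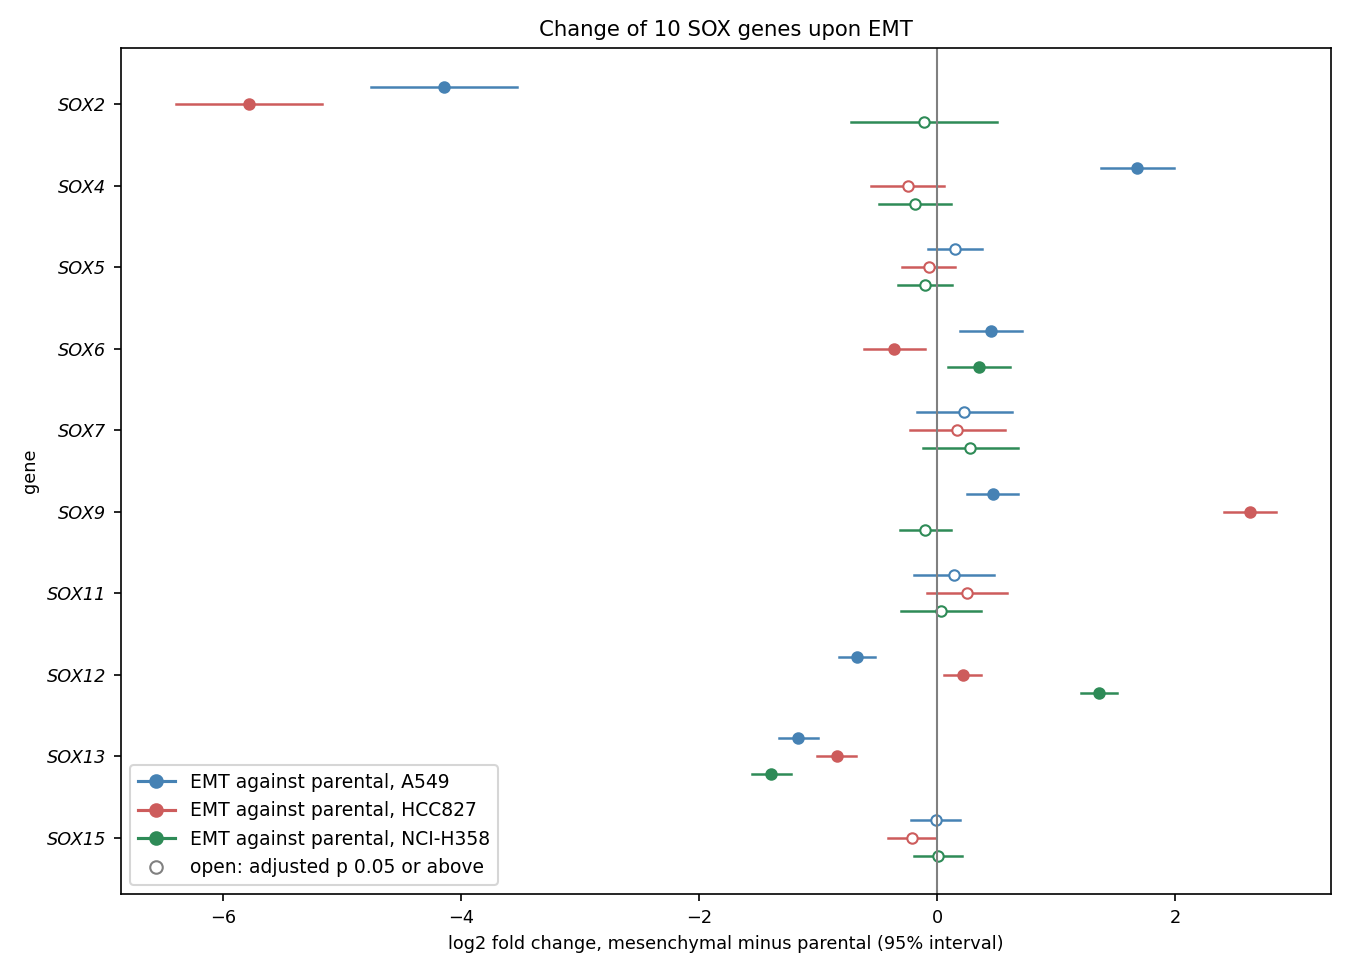
The log2 fold change of mesenchymal over parental cells (horizontal axis) is drawn for each SOX gene and line with its 95% interval from limma, and open points have an adjusted p of 0.05 or above. SOX13 is the gene with 3 filled points on the left, at -1.17, -0.85 and -1.39, while SOX12 runs from -0.68 in A549 to 1.36 in NCI-H358.

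In the SOXC group, SOX4 and SOX12 moved in opposite directions in A549 and SOX11 was not called in any line. SOX4 read 6.58, 6.56 and 6.84 in parental A549 and 8.28, 8.41 and 8.34 in mesenchymal A549 cells. The groups did not overlap, and SOX4 rose by 1.68 (SE 0.14, adjusted p = 4.41e-08), or 3.21-fold. In HCC827 SOX4 was at 9.26, 8.91 and 8.81 in parental and at 8.56, 8.57 and 9.10 in mesenchymal cells. In NCI-H358 it was at 8.00, 8.01 and 8.09 and at 8.02, 7.63 and 7.88, respectively. The groups overlapped in both lines, with log2 fold changes of -0.25 (adjusted p = 0.181) and -0.19 (adjusted p = 0.346). Without the HCC827 mesenchymal array at 9.10, the value in HCC827 was -0.43 (adjusted p = 0.013) and SOX4 was called lower. Parental A549 had the lowest SOX4 level of the 6 groups, 1.18 below the next group, mesenchymal NCI-H358 (adjusted p = 1.35e-06). After EMT, SOX4 in A549 (8.34 ± 0.06) lay between mesenchymal HCC827 (8.74 ± 0.31, adjusted p = 0.0256) and parental NCI-H358 (8.03 ± 0.05, adjusted p = 0.0731).

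SOX12 gave a different result in each line. It read 8.24, 8.14 and 8.30 in parental A549 and 7.64, 7.62 and 7.39 in mesenchymal A549, a fall by 0.68 (adjusted p = 6.79e-07). In NCI-H358 it read 7.25, 7.35 and 7.22 in parental and 8.64, 8.61 and 8.66 in mesenchymal cells, a rise by 1.36 (SE 0.07, adjusted p = 7.8e-11), or 2.57-fold. In HCC827 the levels were 7.76, 7.76 and 7.74 and then 8.02, 7.99 and 7.89, a rise by 0.21 (adjusted p = 0.0226). The groups did not overlap in any line. All 5 steps between neighbours in the order of SOX12 levels passed the test, from mesenchymal NCI-H358 (8.64 ± 0.02) through parental A549, mesenchymal HCC827, parental HCC827 and mesenchymal A549 to parental NCI-H358 (7.27 ± 0.07), so that NCI-H358 supplied both ends of the order. The small rise in HCC827 lost its call in a fit of the HCC827 arrays alone (adjusted p = 0.0537) and without parental replicate 3, mesenchymal replicate 1 or mesenchymal replicate 2 (0.0585 to 0.0836). SOX11, a neuronal SOXC factor, had means between 3.62 and 4.02 in all groups, below the 25th percentile of all values, with log2 fold changes of 0.14, 0.25 and 0.03 and adjusted p of 0.53, 0.233 and 0.917.

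Of 10 genes linked to SOXC factors, 3 were called higher (16.6% of all genes were) and 4 lower (26.8%) in A549. HCC827 had 3 higher (20.8%) and 2 lower (25%), and NCI-H358 3 higher (21.5%) and 3 lower (19.8%). In A549 1 was called higher without parental replicate 2 or mesenchymal replicate 2, and in HCC827 1 was called lower without parental replicate 2, parental replicate 3 or mesenchymal replicate 3. SEMA3C, a secreted semaphorin, rose in all 3 lines, by 1.16, 2.07 and 0.97 in A549, HCC827 and NCI-H358. SOX4 was called only in A549, and a link between these genes was not tested. EZH2, the Polycomb methyltransferase, fell by 0.54, 0.20 and 0.50, and its call in HCC827 was lost without parental replicate 2 or 3 or mesenchymal replicate 3 (adjusted p 0.0703 to 0.123). NES (nestin, an intermediate filament of progenitors) fell by 0.88 in A549 and rose by 2.28 and 2.19 in HCC827 and NCI-H358. Without A549 mesenchymal replicate 3 the NES value in A549 was -0.63 (adjusted p = 0.0612). STMN1 (stathmin, a microtubule regulator) fell by 0.88 in A549 and 0.76 in NCI-H358, with 0.03 in HCC827 (adjusted p = 0.795).

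SOX9, the SOXE member, rose most in the line that had least of it. In HCC827 it read 5.30, 5.10 and 5.35 in parental cells and 7.84, 7.84 and 7.96 in mesenchymal cells, a rise by 2.63 (SE 0.10, adjusted p = 1.19e-12), or 6.19-fold. In A549 it read 7.51, 7.31 and 7.48 and then 7.77, 7.92 and 8.00, a rise by 0.47 (adjusted p = 0.00123). The groups did not overlap in these lines. In NCI-H358, where parental levels were highest, it read 9.26, 9.12 and 9.28 and then 9.36, 8.96 and 9.03, with overlapping groups and a log2 fold change of -0.10 (95% interval -0.32 to 0.12, adjusted p = 0.5). Mesenchymal A549 (7.90 ± 0.11) and mesenchymal HCC827 (7.88 ± 0.07) differed in SOX9 by 0.02 (95% interval of HCC827 minus A549 -0.23 to 0.20, adjusted p = 0.905), whereas parental HCC827 had been 2.18 below parental A549 (adjusted p = 6.32e-12).

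The cartilage genes that SOX9 drives together with SOX5 and SOX6 were taken as a list, of which 14 genes were measured (2 of them, LECT1 and CTGF, under older symbols). Among them 5 genes were called higher in A549 (16.6% of all genes were), 3 genes in HCC827 (20.8%) and 6 genes in NCI-H358 (21.5%). The 1 gene called lower was COL9A3 in NCI-H358 (-1.31), where 19.8% of all genes were called lower. The median log2 fold change of the list was 0.12, 0.09 and 0.13. The classical targets COL2A1 (type II collagen) and ACAN (aggrecan) were not called in any line, and their means lay between 4.47 and 4.83. MATN3 (matrilin, a cartilage matrix adaptor) rose by 1.58, 3.03 and 1.65, respectively. COL27A1, a fibrillar collagen of cartilage, rose by 1.64, 3.51 and 2.25, and CTGF, a matricellular protein also induced by TGFβ itself, by 3.59, 3.55 and 1.76. COL11A1, another fibrillar collagen, rose by 4.31 in A549, with 0.17 in HCC827 (adjusted p = 0.492). In NCI-H358 the COL11A1 arrays of the 2 states overlapped at 3.31 to 4.50, below the 25th percentile of all values, and the log2 fold change of 0.55 (adjusted p = 0.019) lost its call without parental replicate 2 (0.36, adjusted p = 0.124), mesenchymal replicate 1 (0.54, 0.0504) or mesenchymal replicate 3 (0.42, 0.0988). In NCI-H358, where SOX9 was not called, both MATN3 means (2.67 and 4.32) also lay below that percentile and cannot be told from no signal. So did the parental means of MATN3 in HCC827 (3.72) and of COL27A1 in NCI-H358 (3.63), and those rises are lower bounds. Whether SOX9 acts on the listed genes was not tested.

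Among the SOXD factors, SOX13 fell in every line. It read 7.08, 6.99 and 6.93 in parental A549 and 5.76, 5.95 and 5.77 in mesenchymal A549. In HCC827 it read 7.14, 6.88 and 6.96 and then 6.10, 6.20 and 6.13, and in NCI-H358 7.43, 7.50 and 7.49 and then 6.19, 6.02 and 6.02. All 9 mesenchymal arrays lay below all 9 parental arrays. SOX13 fell by 1.17 in A549 (SE 0.08, adjusted p = 2.17e-09), by 0.85 in HCC827 (adjusted p = 9.39e-08) and by 1.39 in NCI-H358 (adjusted p = 1.86e-10), which is 2.25-fold, 1.80-fold and 2.63-fold lower. It was the 1 member called lower in all 3 lines, where 6.14% of all genes were. By limma 0 members were called higher in all 3 lines, where 4.31% of all genes were, and the count was also 0 at an unadjusted p below 0.05 and by the methods' t-test. SOX6 and SOX12 were called in all 3 lines in mixed directions, as were 7.39% of all genes. Parental A549 and parental HCC827 had SOX13 at 7.00 ± 0.08 and 6.99 ± 0.13 (adjusted p = 0.959), below parental NCI-H358 at 7.47 ± 0.04.

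SOX6, which acts with SOX5 and SOX9 in cartilage, lay near the bottom of the scale, with means from 3.14 to 4.45. None of these means can be told from no signal. It read 3.23, 3.42 and 3.12 and then 3.76, 3.44 and 3.91 in A549, 3.39, 3.54 and 3.58 and then 3.15, 3.07 and 3.21 in HCC827, and 4.06, 4.08 and 4.16 and then 4.58, 4.18 and 4.59 in NCI-H358. The groups did not overlap in any line, and SOX6 rose by 0.45 in A549 (adjusted p = 0.00603), fell by 0.36 in HCC827 (0.0211) and rose by 0.35 in NCI-H358 (0.0281). With the methods' t-test SOX6 had an adjusted p of 0.114 in A549 and 0.131 in NCI-H358. Without 1 array SOX6 lost its call in HCC827 for parental replicates 2 and 3 and mesenchymal replicate 2 (adjusted p 0.0608 to 0.0731) and in NCI-H358 for parental replicates 1 and 2 and mesenchymal replicates 1 and 3 (0.07 to 0.121). With arrays centred on their median, SOX6 in HCC827 was at -0.30 (adjusted p = 0.0505). SOX5 was not called upon EMT in any line (0.15, -0.07 and -0.10), with means from 3.96 in mesenchymal HCC827 to 5.17 in parental NCI-H358. The step from mesenchymal NCI-H358 to mesenchymal A549 was 0.68 for SOX5 (adjusted p = 2.6e-05), and the other neighbours in its order did not pass the test. That step is a lower bound, as the SOX5 mean in mesenchymal A549 (4.38) cannot be told from no signal.

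SOX proteins share the HMG box and related binding sequences with the TCF/LEF factors, the nuclear arm of WNT signalling. Of 12 TCF/LEF and beta-catenin genes, 4 were called higher and 2 lower in each of A549 and HCC827, and 3 higher and 2 lower in NCI-H358. Over all genes, 16.6%, 20.8% and 21.5% were called higher and 26.8%, 25% and 19.8% lower in A549, HCC827 and NCI-H358. LEF1, a DNA-binding partner of beta-catenin, rose by 2.75 in NCI-H358 (adjusted p = 1.44e-09), with 0.10 in A549 and 0.01 in HCC827 (adjusted p = 0.717 and 0.978). RNF43, which clears Frizzled receptors, fell by 1.56 in HCC827 and 1.71 in NCI-H358 and was at -0.34 in A549 (adjusted p = 0.0673). DKK1, a secreted WNT antagonist, fell by 2.03 in A549 and 0.95 in NCI-H358, with -0.00 in HCC827 (adjusted p = 0.987) or -0.28 without HCC827 parental replicate 1 (adjusted p = 0.0167), and CCND1 (cyclin D1) rose by 1.07 in A549 and 1.53 in HCC827, with -0.20 in NCI-H358 (adjusted p = 0.051).

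**Figure D3:**
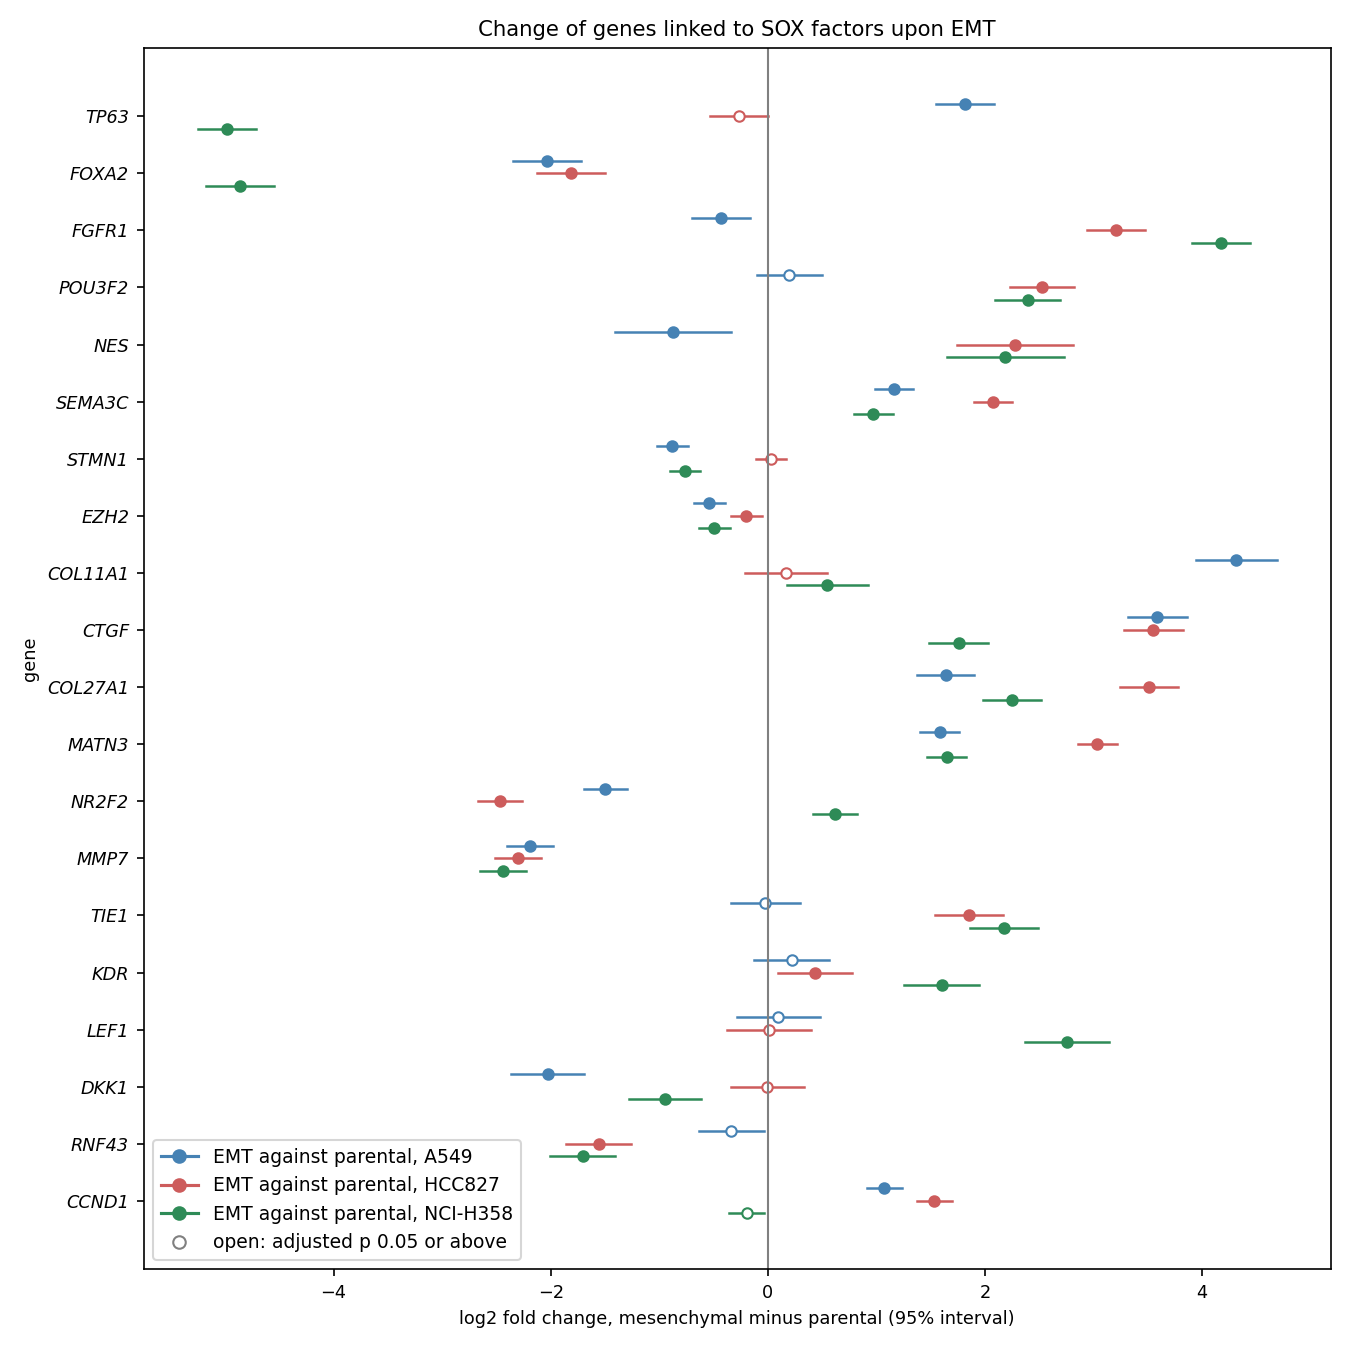
For 20 genes linked to SOX factors, the log2 fold change of mesenchymal over parental cells (horizontal axis) is drawn per line with its 95% interval, open points having an adjusted p of 0.05 or above. TP63 and FOXA2 lie furthest left, at -4.98 and -4.86 in NCI-H358, and COL11A1 lies furthest right, at 4.31 in A549.

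SOX7 and SOX15 were not called upon EMT in any line. SOX7, the SOXF factor, read 6.78, 6.25 and 6.81 and then 6.90, 6.74 and 6.89 in A549, 5.88, 6.56 and 6.44 and then 6.29, 6.49 and 6.61 in HCC827, and 3.25, 3.66 and 3.53 and then 3.43, 3.81 and 4.03 in NCI-H358. The states overlapped in every line, while all 6 NCI-H358 arrays lay below all 12 others. The SOX7 step from parental HCC827 to mesenchymal NCI-H358 was 2.54 (adjusted p = 2.54e-09), and no other neighbours in the order passed the test. That step is a lower bound, as the SOX7 mean in mesenchymal NCI-H358 (3.76) cannot be told from no signal. The log2 fold changes of SOX7 upon EMT were 0.23, 0.17 and 0.28 (adjusted p = 0.364, 0.519 and 0.275). SOX15, a factor known from muscle precursors and placenta, stayed between 5.85 and 6.39 on all 18 arrays, with log2 fold changes of -0.02, -0.21 and 0.01 and adjusted p of 0.92, 0.0799 and 0.963. In HCC827 the SOX15 groups did not overlap, and without mesenchymal replicate 3 the value was -0.29 (adjusted p = 0.0277).

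Of 11 SOXF partners and endothelial targets, 3 were called higher (16.6% of all genes were) and 2 lower (26.8%) in A549. HCC827 had 4 higher (20.8%) and 3 lower (25%), and NCI-H358 5 higher (21.5%) and 1 lower (19.8%). MMP7 (matrilysin) fell by 2.19 in A549, fell by 2.30 in HCC827 and fell by 2.44 in NCI-H358. NR2F2, the venous identity factor, fell from a mean of 7.08 to 5.58 in A549 and from 8.70 to 6.24 in HCC827 and rose from 7.41 to 8.03 in NCI-H358. TIE1, an endothelial receptor kinase, rose by 1.85 in HCC827 and 2.18 in NCI-H358, with -0.02 in A549 (adjusted p = 0.925), and KDR (the main VEGF receptor) rose by 1.60 in NCI-H358, with 0.22 in A549 (adjusted p = 0.311). The parental means of TIE1 in HCC827 (4.07) and NCI-H358 (4.42) lay below the 25th percentile of all values. So did that of KDR in NCI-H358 (4.60), and these 3 rises are lower bounds. In HCC827 the log2 fold change of KDR was 0.43 (adjusted p = 0.0369) between means of 3.93 and 4.36, both below the 25th percentile, and the call was lost without any 1 of 5 of the 6 arrays, with a value of 0.28 (adjusted p = 0.198) without mesenchymal replicate 3. Of 5 endothelial markers, which include KDR, limma called 2 in HCC827 and 1 in NCI-H358, all higher, and the 2 in HCC827 became 0 without parental replicate 1 or mesenchymal replicate 2 and 1 without parental replicate 2, mesenchymal replicate 1 or mesenchymal replicate 3.

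The change upon EMT itself was compared between lines. Of the 10 genes, 6 differed between HCC827 and A549 (42.2% of all genes did), 4 between NCI-H358 and A549 (42.8%) and 5 between NCI-H358 and HCC827 (37.9%). With a fold above 2 as well, the counts were 3 (13.4% of all genes), 3 (12.7%) and 3 (11%), and at the study's thresholds 0 (2.92%), 1 (3.01%) and 2 (2.06%). Each pair of these comparisons shares the arrays of 1 line. The SOX2 change in NCI-H358 differed from that in A549 by 4.03 (adjusted p = 4.9e-07) and from that in HCC827 by 5.67 (adjusted p = 1.03e-08). Both differences are lower bounds, as the SOX2 falls in A549 and HCC827 are, so they cannot be ranked. For HCC827 minus A549 the SOX2 difference was -1.64 (adjusted p = 0.00357), but both mesenchymal means lay below the 25th percentile, so each fall is a lower bound and the 2 falls cannot be ranked. For SOX4, the changes in HCC827 and NCI-H358 were lower than in A549 (-1.93 and -1.87) and differed from each other by 0.06 (95% interval -0.37 to 0.49, adjusted p = 0.857). SOX9 and SOX12 differed in every pair, by up to 2.73 in size for SOX9 (NCI-H358 minus HCC827, -2.73) and 2.04 for SOX12 (NCI-H358 minus A549). For SOX13 the fall in NCI-H358 was larger than in HCC827 (-0.55, adjusted p = 0.000807), and the difference between NCI-H358 and A549 was -0.23 (95% interval -0.46 to 0.01, adjusted p = 0.119). The difference of SOX13 between HCC827 and A549, 0.32 (adjusted p = 0.0286), lost its call in a fit of the 4 groups concerned (0.0509), with an intensity trend (0.0544) and without any 1 of 6 of the 12 arrays (0.0575 to 0.0804), namely A549 parental replicate 1, A549 mesenchymal replicates 1 and 3, HCC827 parental replicates 2 and 3 and HCC827 mesenchymal replicate 2.

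**Figure D4:**
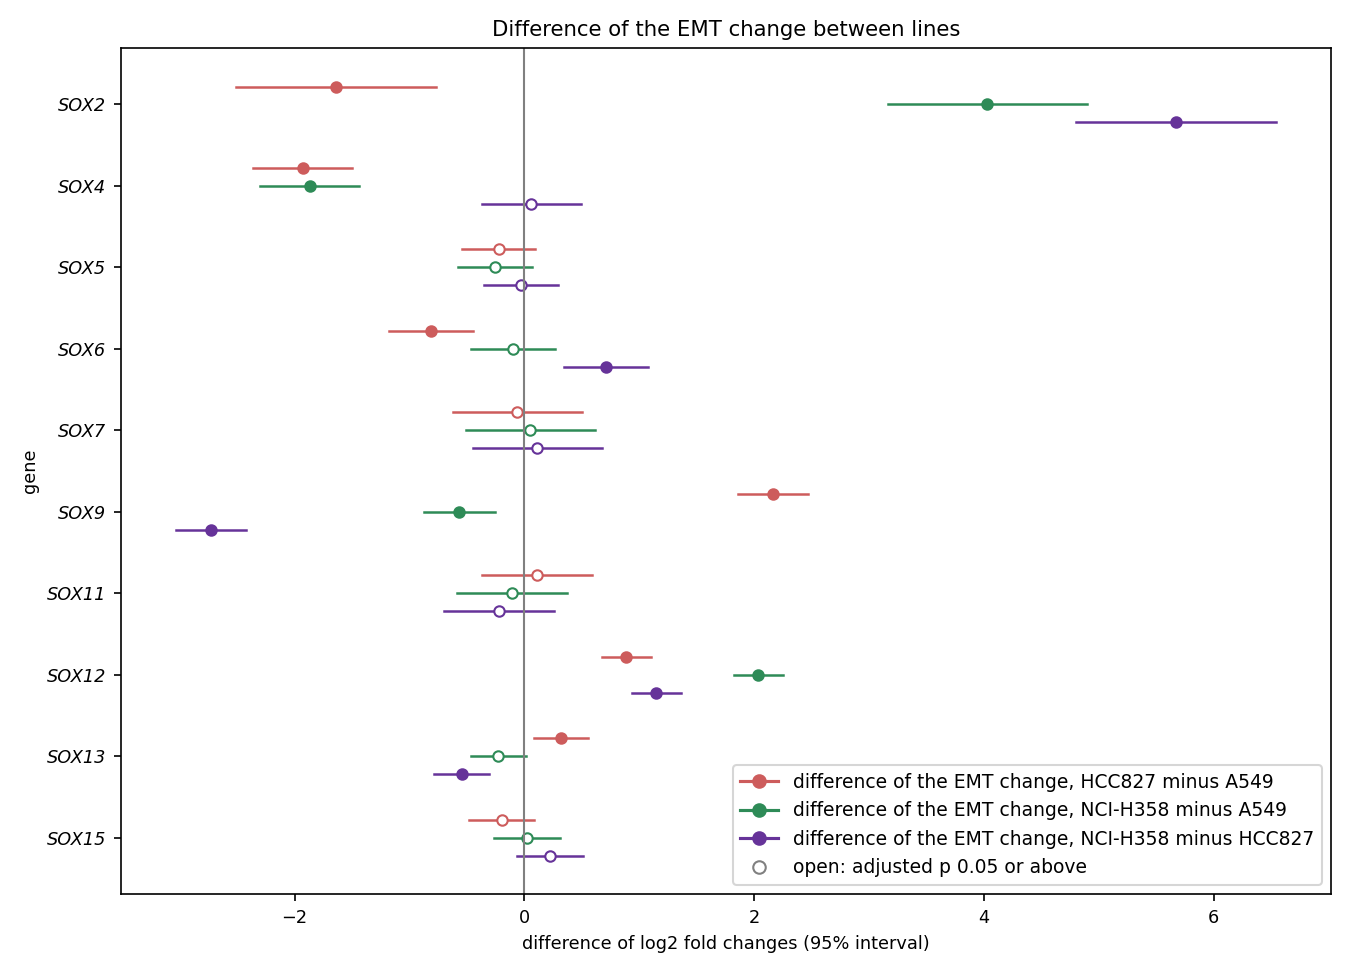
The difference between 2 lines in the log2 fold change upon EMT (horizontal axis) is drawn for each SOX gene with its 95% interval from limma, and open points have an adjusted p of 0.05 or above. As measured, SOX2 spans the widest range, from -1.64 for HCC827 minus A549 to 5.67 for NCI-H358 minus HCC827.

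Before EMT the lines already differed in SOX levels. Parental HCC827 and A549 differed in 4 of the 10 genes (57.1% of all genes did), parental NCI-H358 and A549 in 8 (57.9%) and parental NCI-H358 and HCC827 in 8 (52.6%). With a fold above 2 as well, 3 (18.8%), 4 (20.4%) and 3 (15.2%) genes passed, and at the study's thresholds 1 (5.15%), 2 (6.19%) and 2 (3.32%). With 1 array left out, parental NCI-H358 and HCC827 differed in 7 to 8 genes at an adjusted p below 0.05. Which gene lost its call in these fits was not followed. Relative to parental A549, parental HCC827 had more SOX2 and SOX4 (2.17 and 2.33 higher) and less SOX9 and SOX12 (-2.18 and -0.47). Relative to parental A549, parental NCI-H358 had more SOX2 (2.83), SOX4 (1.37), SOX5 (0.94), SOX9 (1.79) and SOX13 (0.48) and less SOX7 (-3.14) and SOX12 (-0.95). SOX6 also read higher (0.84), but its means in parental NCI-H358 (4.10) and parental A549 (3.26) both lay below 4.67, the limit set above. Below that limit a mean cannot be told from no signal. The SOX5 mean in parental A549 (4.23) and the SOX7 mean in parental NCI-H358 (3.48) lay below it too. The widest parental gap as measured was that of SOX9 between NCI-H358 and HCC827, at 3.97 or 15.6-fold (adjusted p = 3.81e-15). The SOX5 and SOX7 gaps between NCI-H358 and the other lines are lower bounds in size, so they cannot be ranked against it. SOX2 did not pass the test between these lines (0.66, adjusted p = 0.0666).

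In the mesenchymal state, 5 of the 10 genes differed between HCC827 and A549 (56.6% of all genes did), namely SOX4, SOX5, SOX6, SOX12 and SOX13, by 0.31 to 0.56 in size and with no gene past a fold of 2. Mesenchymal NCI-H358 differed from mesenchymal A549 in 8 genes (58.8%) and from mesenchymal HCC827 in 7 (52.6%). With a fold above 2 as well, the counts were 0 (17.2%), 4 (19.8%) and 5 (15.2%), and at the study's thresholds 0 (4.51%), 2 (5.83%) and 2 (3.47%). With 1 array left out, mesenchymal HCC827 and A549 differed in 4 to 5 genes at an adjusted p below 0.05. Mesenchymal NCI-H358 and A549 differed in 7 to 9. Which genes lost their call in these fits was not followed. NCI-H358 was above both for SOX2 (6.86 and 6.34), SOX9 (1.22 and 1.24), SOX12 (1.09 and 0.67) and SOX5 (0.68 and 1.11). It was below both for SOX7 (-3.09 and -2.70) and SOX4 (-0.50 and -0.90). The gaps for SOX2, SOX5 and SOX7 are lower bounds in size, as the lower means lay below 4.67, the limit set above. SOX6 also read higher in NCI-H358 (0.74 and 1.31), but its mesenchymal means (3.14 to 4.45) lay below that limit in every line. They cannot be told from no signal, nor can the SOX5 means of mesenchymal A549 and HCC827 (4.38 and 3.96). SOX12 thus differed from the parental state, in which NCI-H358 had had the lowest level of the lines.

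The other SOX genes of the table were near the bottom of the scale or moved little. Of these 9 genes, limma called 2 higher (16.6% of all genes were) and 1 lower (26.8%) in A549. In HCC827 and NCI-H358 it called 0, where 45.8% and 41.4% of all genes were called. At an unadjusted p below 0.05 limma counted 1 in HCC827 and 0 in NCI-H358, and the methods' t-test 0 and 1, with 0 after adjustment. SOX8, a SOXE relative of SOX9, read 4.07, 3.99 and 4.03 in parental A549 and 5.11, 5.33 and 5.36 in mesenchymal A549 cells. It rose by 1.24 there (adjusted p = 6.79e-07), or 2.35-fold, reaching the 33.8th percentile of the array on average, and was at 0.10 in HCC827 and -0.17 in NCI-H358 (adjusted p = 0.579 and 0.351). SOX18, a SOXF factor, fell by 0.36 in A549 (adjusted p = 0.00968) and SOX30 rose by 0.38 (adjusted p = 0.0366), both at mean levels below 4 in that line. SOX18 lost its call without parental replicate 1 (adjusted p = 0.0515), and SOX30 without parental replicate 1 or 2 or mesenchymal replicate 1 or 3 (0.0876 to 0.122). SOX1, SOX3, SOX10, SOX14, SOX17 and SOX21 were not called in any line with all arrays in the fit.

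**Figure D5:**
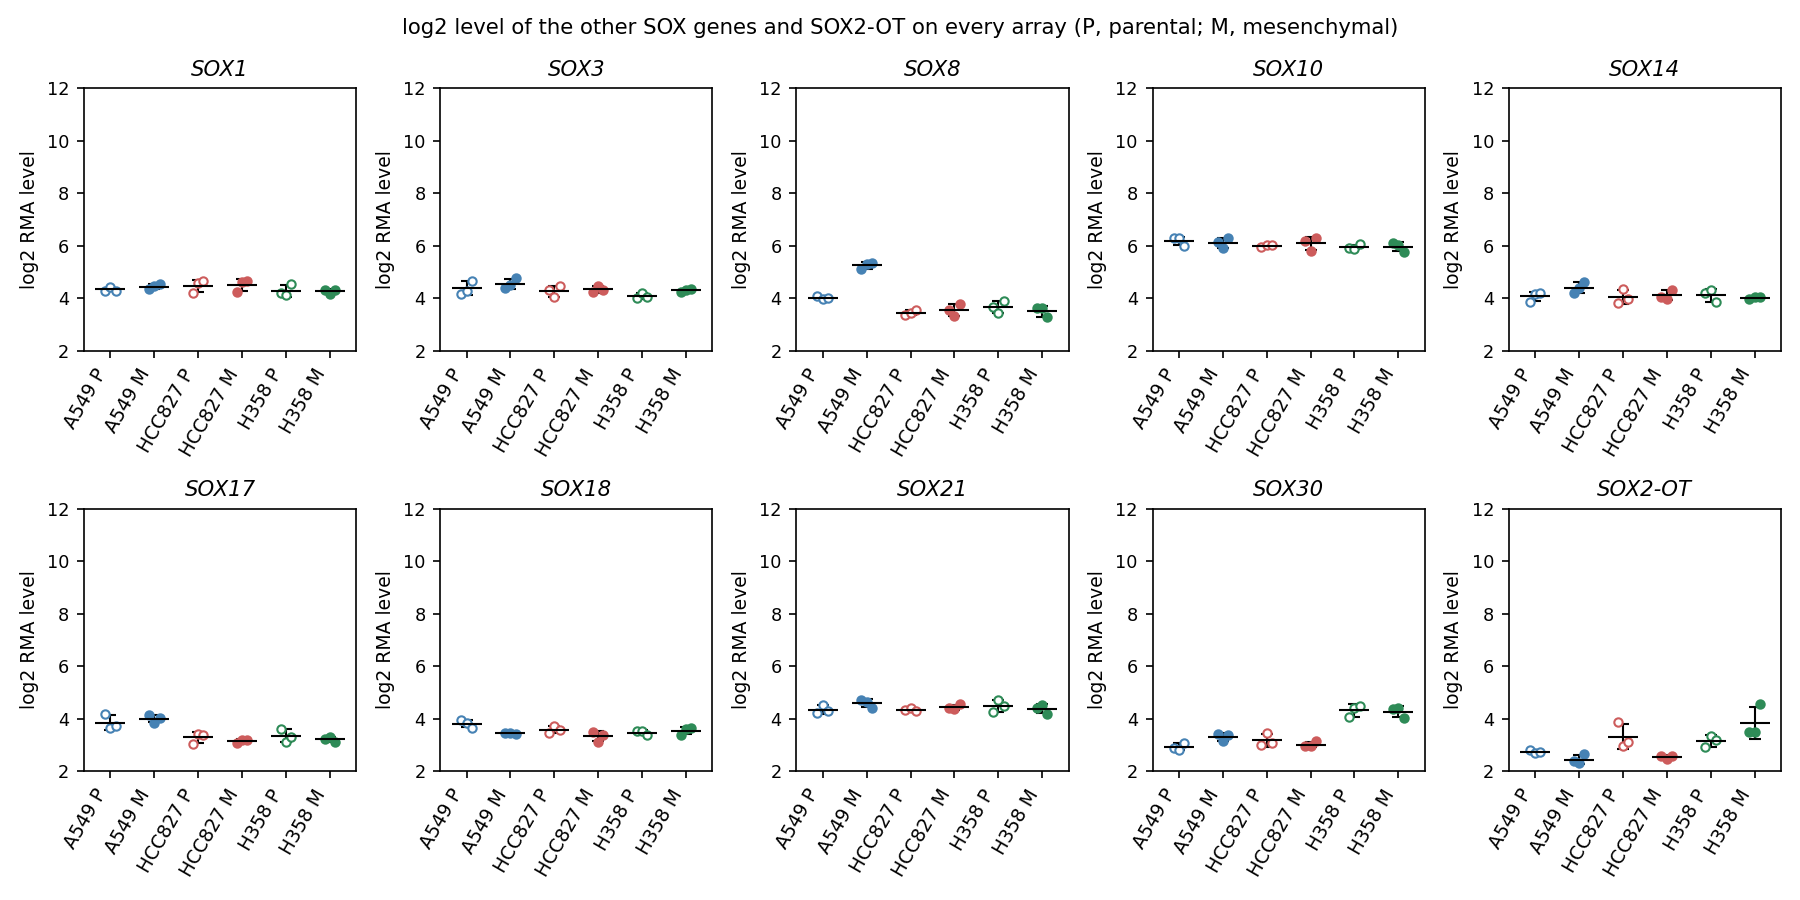
Each panel plots the log2 RMA level (vertical axis) of 1 of the other 9 SOX genes or of SOX2-OT on every array, with open points for parental and filled points for mesenchymal cells and bars for the mean ± SD of 3 arrays. SOX8 in A549 moves from about 4.03 to 5.27. The SOX30 means run from 2.93 in parental A549 to 4.31 in parental NCI-H358, and those of SOX2-OT from 2.45 to 3.85.

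The genes whose levels followed each member most closely were found by Pearson's r over the 18 arrays, which fall into 6 groups of 3, so that r mainly reflects 6 group means. For SOX2 they included SLC18B1 (r = 0.972) and SPRY2 (0.967), for SOX4 they were MOAP1 (0.942), HECA (0.936) and SLFN5 (0.936), and for SOX9 they included ARAP3 (0.976) and NDUFAB1 (0.956). SOX12 was nearest to POLR1C (0.978), LOC728705 (0.949) and SLC4A1AP (0.910), and SOX13 to VAV3 (0.984), AREG (0.974) and EFHD2 (0.969). SOX7 was nearest to PNMAL1 (0.987), HDGFRP3 (0.985) and C5orf25 (0.984), SOX5 to C15orf52 (0.969), KCTD5 (0.966) and LINC00328 (0.962), and SOX6 to TRIM36 (0.946), ATP6V1H (0.941) and LINGO2 (0.936). SOX11 and SOX15, which varied least between groups, had the weakest best matches, ADAMTS18 (0.890), SCN3B (0.858) and FLJ41649 (0.849) for SOX11 and TMEM74B (0.805), HOXB6 (0.795) and LOC100507395 (0.786) for SOX15. Among the members themselves, SOX5 ran with SOX6 (r = 0.839) and SOX9 (0.757) and against SOX7 (-0.902) over the same 18 arrays.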

How the data were processed

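Total RNA of 18 cell cultures was hybridized to Affymetrix U133 Plus 2.0 arrays. RMA normalization was done by the authors, whose deposited table gives a log2 level for each of 19849 genes from 1 probe set per gene. The rule for choosing the probe set and the annotation version are not given in the sources used here, other probe sets of the SOX genes were not analysed here, and 0 columns were left without a sample. The table gives no detection calls, so a low level cannot be told from no signal. The labels give 3 weeks of TGFβ, while the methods give a range that depends on the line.

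Groups came from the sample labels, which carry no replicate numbers or batches, and the arrays were numbered in accession order. All 6 groups were fitted together by lmFit and eBayes of limma (version 3.58.1, under R 4.3.3), with no covariate. Contrasts gave the change upon EMT, its difference between lines, and the lines within each state. Called means a Benjamini-Hochberg adjusted p below 0.05 over all genes. Named were all SOX genes (SRY left out), up to 4 called genes per list with the largest change in any line, 4 checks of the labels (CDH1, CDH2, VIM and ZEB1) and the 3 nearest genes per member, some of which are not reported here. SOX2-OT, COL2A1, ACAN, COL9A3 and NKX2-1 were named outside this rule, after their values were seen. The members and lists were chosen with earlier results of these data known. Gene lists and markers overlap in part. Cross-hybridization of probe sets was not tested.

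The alternatives were other thresholds, median centring, quantile normalization, an intensity trend, a filter on dim genes, fits of fewer groups, a two-sided Student's test that the methods name in general but not for the arrays, which they analysed with limma (called here the methods' t-test), and each array left out, which was added for the named linked genes after their values were seen. The steps were tested on simulated data. Arrays have no sequencing depth, and 3 arrays per group limit the precision.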

Additional observations from a re-analysis of the deposited data

Results flagged for a closer look

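The following SOX genes had a change upon EMT that differed between 2 lines by limma's contrast of the changes. Each value is a difference of log2 fold changes, and its cause was not tested. For HCC827 minus A549 the differences were -1.64 for SOX2, -1.93 for SOX4, -0.81 for SOX6, 2.16 for SOX9, 0.89 for SOX12, 0.32 for SOX13, -1.13 for SOX8 and -0.54 for SOX30, with adjusted p from 2.65e-09 (SOX9) to 0.0366 (SOX30). For NCI-H358 minus A549 they were 4.03 for SOX2, -1.87 for SOX4, -0.57 for SOX9, 2.04 for SOX12, -1.41 for SOX8 and 0.44 for SOX18, with adjusted p from 6.51e-11 (SOX12) to 0.0251 (SOX18). For NCI-H358 minus HCC827 they were 5.67 for SOX2, 0.71 for SOX6, -2.73 for SOX9, 1.15 for SOX12 and -0.55 for SOX13, with adjusted p from 2.46e-10 (SOX9) to 0.0031 (SOX6). At least 3 of the 4 group means behind each value for SOX6, SOX8, SOX18 and SOX30 lay below the 25th percentile of all levels, as did 2 of 4 for SOX2 in HCC827 minus A549 and 1 of 4 in each of the other SOX2 differences.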

How the results depend on the processing

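No paired analysis was possible because the labels give no replicate numbers. With a fold above 2 as well, 3 SOX genes were called in A549 and 2 in HCC827, differences of the change numbered 3 for HCC827 minus A549 and 3 for NCI-H358 minus HCC827, parental NCI-H358 differed in 4 genes from A549 and 3 from HCC827, and mesenchymal HCC827 and NCI-H358 differed from A549 in 0 and 4. At the study's thresholds (adjusted p below 1e-05 and fold above 5) the counts were 1, 2 and 0 in A549, HCC827 and NCI-H358, 0, 1 and 2 for the differences, 1, 2 and 2 for parental and 0, 2 and 2 for mesenchymal lines, each in the order HCC827 against A549, NCI-H358 against A549 and NCI-H358 against HCC827. At those folds the counts of 0 for NCI-H358 and for mesenchymal HCC827 against A549 were also 0 at an unadjusted p below 0.05, by limma and by the methods' t-test. For HCC827 minus A549, limma at an unadjusted p below 0.05 and fold above 5 gave 0 as well. In A549, HCC827 and NCI-H358, the gene lists had 26, 32 and 32 called genes with a fold above 2. Of all genes, 8.02%, 11.5% and 9.38% were. At the study's thresholds the lists had 8, 16 and 11 (1.9%, 2.95% and 2.17% of all genes). At an adjusted p below 0.05 alone the lists had 56, 50 and 52 (43.4%, 45.8% and 41.4% of all genes). The number of distinct genes over all lists is not given here, so these counts are not read against those shares.

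With 1 array left out, the SOX genes called numbered 6 to 6 in A549, 3 to 7 in HCC827 and 2 to 3 in NCI-H358. The 3 in HCC827 came without parental replicate 3 or mesenchymal replicate 2, and the 7 without mesenchymal replicate 3. Differences of the change numbered 5 to 6, 4 to 4 and 5 to 6, and SOX15 joined those of NCI-H358 minus HCC827 without NCI-H358 parental replicate 1 (0.33, adjusted p = 0.0427). Parental lines gave 4 to 6, 8 to 9 and 7 to 8, and mesenchymal lines 4 to 5, 7 to 9 and 7 to 7. The lists gave 49 to 55, 45 to 53 and 49 to 53. Centring each array on its median raised the share of higher calls among all genes in A549 from 38.3% to 48.9%. The filter on dim genes kept 16310 genes and 8 members, removing SOX6 and SOX11. A sign changed in 36 values with an array left out and 5 under other settings, of which 0 were called by limma (smallest adjusted p 0.564), and no called value changed direction under the alternatives run. For the changes upon EMT and their differences, calls that were lost are given with SOX6, SOX12 and SOX13. Which genes lost a call between parental or between mesenchymal lines was not followed. The causes of these shifts were not tested.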
